A study of Mus musculus with 30 samples.

Results

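The genes described here are the MHC class I heavy chains H2-K1, H2-D1 and H2-T23, their light chain B2m, the peptide loading genes Tap1, Tap2, Tapbp and Erap1, and the class I transactivator Nlrc5. They were chosen by name: the row of the deposited annotation with that gene name and the type protein coding was joined by its Ensembl gene ID to the expression table, which gave 9 genes of 30952. RNA came from microglia and astrocytes sorted from spinal cord of female C57BL/6 mice in 3 groups: naive, EAE-vehicle and EAE-RIPK1inh-1. EAE (experimental autoimmune encephalomyelitis) was induced with the myelin peptide MOG35-55 in complete Freund's adjuvant, with pertussis toxin. The study states neither of these for the naive mice. Mice of both EAE groups were dosed for 3 days once their clinical score had reached about 1, by oral gavage 2 times a day. EAE-vehicle mice got 20% Captisol, and EAE-RIPK1inh-1 mice got the RIPK1 kinase inhibitor GSK'547 at 50 mg/kg. The study states an age of 8 to 10 weeks at immunization, while no age was given for the naive mice. Each cell type had 4 naive, 6 EAE-vehicle and 5 EAE-RIPK1inh-1 libraries, 30 in all and as many of each cell type as mice in a group, and no genetic change was listed for any group. The sort kept CD11b+ CD45int CX3CR1+ cells as microglia and GLAST+ CD11b- CD45- CD140a- cells as astrocytes.

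MHC class I molecules show peptides from inside a cell to CD8 T cells. The heavy chain folds with beta-2 microglobulin, the product of B2m, in the endoplasmic reticulum, where the TAP transporter brings peptides in, tapasin holds the empty molecule next to TAP, and the aminopeptidase ERAP1 trims peptides to fit. Interferons raise the whole set of genes, partly through NLRC5, which acts at class I promoters. In the healthy central nervous system, parenchymal cells are known for low class I levels.

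Levels are given as log2 FPKM, a fragment count divided by the exon length of the gene and by the size of the library, quantile-normalized by the authors over the 30 libraries, so that each library has the same set of values and a difference of 1 is a doubling. Read totals cannot be recovered from such values, and how deeply a library was sequenced is unknown. Undetected genes were taken as a library's run of lowest values that only rises in the deposited gene order. Values in that run follow the gene order. Its top differed by library, from 0.00 in naive astrocytes 1 to 2.74 in EAE-vehicle astrocytes 1. Genes above it numbered 8710 to 20398 in microglia libraries and 6728 to 22981 in astrocyte libraries. Under 10000 genes were found in 4 libraries, namely naive microglia 4, naive astrocytes 2, EAE-vehicle astrocytes 1 and EAE-RIPK1inh-1 astrocytes 5. The mean of 10 microglia markers was 8.55 to 10.71 in microglia libraries against 0.94 to 4.18 in astrocyte libraries, and that of 8 astrocyte markers was 8.30 to 9.64 in astrocyte libraries against 0.99 to 2.23 in microglia libraries. Oligodendrocyte markers, 7 in all, averaged 6.19 to 9.91 in astrocyte libraries. Neuron markers, 6 in all, averaged 3.885 to 6.07 in astrocyte libraries and 0.04 to 0.71 in microglia libraries. RNA of other glia and of neurons was thus present in the astrocyte libraries after the sort. In bulk RNA of this kind, a change in the share of a cell type and a change in RNA per cell cannot be told apart.

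By the deposited coordinates, which are those of GRCm38, 6 of the 9 genes lie on chromosome 17, B2m on chromosome 2, Erap1 on chromosome 13 and Nlrc5 on chromosome 8. The 3 heavy chains are H2-K1 (ENSMUSG00000061232, chr17:33996017-34000347, minus strand), H2-D1 (ENSMUSG00000073411, chr17:35262730-35267499, plus strand) and H2-T23 (ENSMUSG00000067212, chr17:36029773-36032855, minus strand). B2m (ENSMUSG00000060802) spans chr2:122147686-122153083 on the plus strand. Tapbp (ENSMUSG00000024308, chr17:33915899-33929292), Tap1 (ENSMUSG00000037321, chr17:34187553-34197225) and Tap2 (ENSMUSG00000024339, chr17:34203527-34216321) are all on the plus strand, as are Erap1 (ENSMUSG00000021583, chr13:74639568-74693201) and Nlrc5 (ENSMUSG00000074151, chr8:94434356-94527272). The deposited annotation flags 7 of the 9 as confounded, all but H2-K1 and H2-D1, by a rule not given in the sources used here. In the reference annotation of the same positions, Tap1 overlaps Psmb9 on the other strand, B2m overlaps Patl2, Erap1 overlaps Cast, and H2-T23 overlaps an antisense gene. The library kit described does not mark strand, so reads from such pairs cannot be told apart. Reads of near-identical class I paralogs may also have been split between H2-K1, H2-D1, H2-T23 and their relatives.

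Start-site windows are shown for the 5 genes that hold the kappaB site or the interferon-stimulated response element searched for. Windows of 300 bases (250 before and 50 after the start) came from RefSeq, GRCm38.p6, and were held for 7 of the 9 genes, Tap2 and Nlrc5 being the others. Capitals mark the kappaB site of enhancer A in H2-K1 and H2-D1, the core of the interferon-stimulated response element (GAAA, any 2 bases, GAAA) in B2m, H2-T23 and Erap1, the core of the X2 box (TGACG) and the Y box core (CCAAT), each searched on both strands. Sequences run 5′ to 3′ on the strand of the gene.
B2m, chr2:122147437-122147736, plus strand: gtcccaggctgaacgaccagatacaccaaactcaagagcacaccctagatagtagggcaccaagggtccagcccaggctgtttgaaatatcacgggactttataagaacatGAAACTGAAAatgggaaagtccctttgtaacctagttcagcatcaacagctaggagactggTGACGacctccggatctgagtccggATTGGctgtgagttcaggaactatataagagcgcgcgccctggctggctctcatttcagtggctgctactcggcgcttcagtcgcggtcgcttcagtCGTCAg
H2-K1, chr17:34000298-34000597, minus strand: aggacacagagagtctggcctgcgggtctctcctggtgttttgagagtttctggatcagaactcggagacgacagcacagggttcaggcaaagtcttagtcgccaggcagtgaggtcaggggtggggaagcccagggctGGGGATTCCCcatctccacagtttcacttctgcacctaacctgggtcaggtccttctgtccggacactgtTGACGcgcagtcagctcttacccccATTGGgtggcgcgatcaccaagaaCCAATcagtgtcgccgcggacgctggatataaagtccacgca
H2-D1, chr17:35262844-35263143, plus strand: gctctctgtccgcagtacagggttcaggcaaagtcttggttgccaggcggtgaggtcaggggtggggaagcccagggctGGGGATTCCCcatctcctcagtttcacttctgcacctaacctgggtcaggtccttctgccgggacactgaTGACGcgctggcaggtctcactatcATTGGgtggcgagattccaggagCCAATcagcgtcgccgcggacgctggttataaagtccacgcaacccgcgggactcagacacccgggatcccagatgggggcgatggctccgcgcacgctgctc
H2-T23, chr17:36032652-36032951, minus strand: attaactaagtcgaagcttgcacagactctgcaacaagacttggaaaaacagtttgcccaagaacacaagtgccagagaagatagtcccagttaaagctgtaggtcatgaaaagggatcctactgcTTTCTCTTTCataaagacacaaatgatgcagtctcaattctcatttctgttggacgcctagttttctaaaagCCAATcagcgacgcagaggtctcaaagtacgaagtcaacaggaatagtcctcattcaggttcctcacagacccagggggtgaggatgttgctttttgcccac
Erap1, chr13:74639603-74639902, plus strand: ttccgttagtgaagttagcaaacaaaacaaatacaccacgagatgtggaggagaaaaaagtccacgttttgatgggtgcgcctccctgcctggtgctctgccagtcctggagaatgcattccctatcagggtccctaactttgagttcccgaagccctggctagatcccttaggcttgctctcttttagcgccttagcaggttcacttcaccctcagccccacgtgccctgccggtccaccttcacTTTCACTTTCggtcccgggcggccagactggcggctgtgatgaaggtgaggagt

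The exact string of the response element core was present in windows of B2m, H2-T23 and Erap1, and in 3.44% of all 32851 RefSeq windows. An element that departs from this string was not searched for, so the H2-K1 and H2-D1 windows cannot be said to lack one. The kappaB site stood in the windows of H2-K1 and H2-D1, against 0.107% of all windows. A Y box core is common, with 37.4% of windows, as is the X2 core with 20.8%. In B2m, H2-K1 and H2-D1 an X2 core was followed by a Y core on the opposite strand whose first base lay 25 bases after that of the X2 core. That spacing was noticed after the windows were read, and 31 of the 32851 windows (0.0944%) hold it. The core of a gamma-activated site (TTC, any 3 bases, GAA) was found in 0 windows of these genes and in 8.30% of all. Over 239 aligned bases the H2-K1 and H2-D1 windows were identical at 211, or 88.3%. A letter match describes these windows only.

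**Figure D1:**
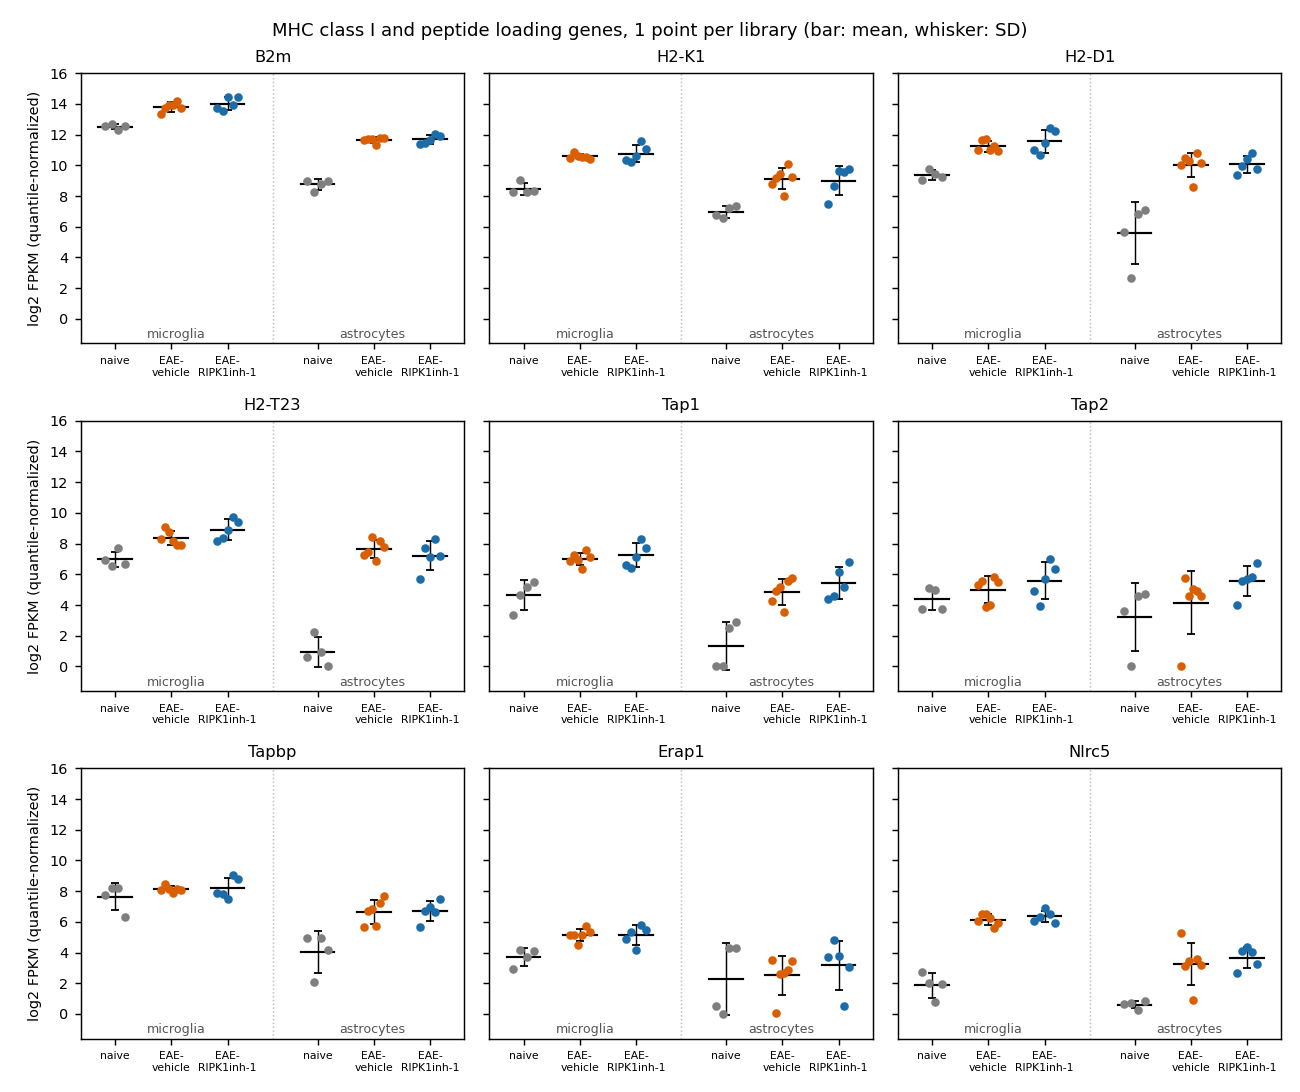
Log2 FPKM of each of the 9 genes (vertical axis) in naive, EAE-vehicle and EAE-RIPK1inh-1 libraries of microglia (left of each panel) and astrocytes (right). Each point is 1 library, with the bar at the group mean and whiskers of 1 SD. Naive libraries lie lowest for B2m, H2-K1, H2-D1, H2-T23 and Nlrc5 in both cell types, and the 2 EAE groups overlap in every panel.

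The comparison of EAE-vehicle with naive microglia takes disease, adjuvant, pertussis toxin and vehicle dosing together, and these cannot be told apart. Class I genes were higher in EAE-vehicle microglia: 7 of the 9 rose and 0 fell (limma, Benjamini-Hochberg adjusted p under 0.05), where 2.37% of all genes tested rose. Tested were all 28958 genes whose values varied among microglia libraries, while at most 20398 genes were detected in any of them. Nlrc5 rose most, 19.3-fold, followed by Tap1 at 5.11-fold and the heavy chain H2-K1 at 4.28-fold, while Tap2 and Tapbp did not pass. For the same 7 genes every EAE-vehicle library lay above every naive library, which was so for 2.93% of genes tested. The median difference over the 9 was 1.46 on the log2 scale, against -0.02 over all genes. Without naive microglia 4, the library under 10000 genes, 6 passed, and 5 passed with array weights, with a common median, or with the replicate number as a block. A common median here means that each library was shifted by the median of its detected genes, which follows the number of genes detected.

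B2m, the shared light chain, was 12.55, 12.70, 12.32 and 12.55 in the 4 naive microglia libraries and ran from 13.32 through a median of 13.82 to 14.20 in the 6 EAE-vehicle libraries. B2m already stood among the 14 highest genes of every naive library, and the EAE-vehicle range began above all 4. Its difference was 1.27 ± 0.21 (SE), or 2.41-fold (adjusted p = 0.00221, limma). H2-K1, a classical heavy chain that presents peptide to CD8 T cells, read 8.24, 9.07, 8.30 and 8.33 in naive and 10.42, 10.57 and 10.85 (lowest, median, highest) in EAE-vehicle libraries, a rise of 2.10 ± 0.25 (adjusted p = 1.35e-04). Naive library 2 stood above the other 3 naive ones for this gene, and still well under the lowest EAE-vehicle library. H2-D1, the other classical heavy chain of this strain, read 9.04, 9.77, 9.43 and 9.23 in naive and 10.92, 11.11 and 11.73 in EAE-vehicle microglia, a rise of 1.88 ± 0.32 (adjusted p = 0.00292) that array weights took to 1.70 (adjusted p = 0.0586). Both classical heavy chains thus rose, with H2-D1 above H2-K1 in all 15 microglia libraries by 0.41 to 1.19. H2-T23 encodes the non-classical Qa-1, which carries leader peptides of other class I chains to NKG2 receptors. Its naive values of 6.95, 6.52, 7.69 and 6.70 lay under an EAE-vehicle range of 7.92, 8.25 and 9.08, a rise of 1.39 ± 0.34 (adjusted p = 0.0335). That call was lost without naive microglia 1, 2 or 4 or without any of EAE-vehicle microglia 1 to 4 (7 of 15 fits with 1 library left out), while the difference stayed between 1.25 and 1.64. It was also lost with array weights (1.07, adjusted p = 0.268), a common median (1.61, adjusted p = 0.164) or the block (1.49, adjusted p = 0.126).

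Of the transporter subunits, Tap1 read 3.33, 4.63, 5.15 and 5.51 in naive and 6.36, 7.02 and 7.56 in EAE-vehicle microglia, a rise of 2.35 ± 0.43 (adjusted p = 0.00510). Tap2, its partner in the same heterodimer, read 3.77, 5.09, 4.99 and 3.77 against 3.87, 5.39 and 5.83, and the groups overlapped (0.60 ± 0.58, 95% interval -0.64 to 1.84, adjusted p = 0.747). Within a library, Tap1 exceeded Tap2 by 1.54 to 3.05 in EAE-vehicle microglia and by -0.46 to 1.74 in naive ones. The bridging factor tapasin (Tapbp) was already high in naive microglia, at 7.77, 8.17, 8.20 and 6.34. In EAE-vehicle microglia it read 7.89, 8.09 and 8.46, a difference of 0.50 ± 0.36 (95% interval -0.28 to 1.28, adjusted p = 0.613). Erap1 read 2.92, 4.15, 3.70 and 4.08 in naive and 4.51, 5.16 and 5.72 in EAE-vehicle libraries, without overlap. It rose by 1.46 ± 0.34 (adjusted p = 0.0233), a call lost in 4 of 15 fits with 1 library left out, namely naive microglia 1 or 3 or EAE-vehicle microglia 5 or 6, as well as with a common median (adjusted p = 0.463) or the block (adjusted p = 0.0615). Nlrc5 was low in naive microglia, at 2.71, 1.99, 0.78 and 1.96, and read 5.57, 6.15 and 6.49 in EAE-vehicle microglia. That gap of 4.27 ± 0.33 (adjusted p = 2.16e-06) was the widest of the 9 in microglia. For each of the 7 genes that rose, an exact two-sided permutation test gave p = 0.00476, the smallest that the 210 splits of 4 and 6 libraries allow.

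Microglia markers also differed between these groups. Their mean was 10.18 to 10.71 in naive and 8.65 to 9.12 in EAE-vehicle libraries, and the homeostatic marker Tmem119 fell by 2.40 (SE 0.34, adjusted p = 6.59e-04). The mean of 9 monocyte and neutrophil markers was 2.25 to 5.25 in naive and 3.78 to 6.98 in EAE-vehicle microglia. EAE-vehicle library 4 had the lowest of these means, 3.78, below naive library 3 at 5.25, and its mean over the 9 class I genes was 8.15, against 6.36 to 6.90 in naive libraries. T cell markers stayed at a mean of 0.41 to 1.02 in both groups. The part of infiltrating myeloid cells in the rise was not tested.

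The same comparison in astrocytes gave larger estimates for most of the genes, a similar estimate for H2-K1 and smaller estimates for Nlrc5 and Erap1. Standard errors were wider for every gene but B2m. In EAE-vehicle astrocytes 5 of the 9 genes rose against naive astrocytes (B2m, H2-K1, H2-D1, H2-T23 and Tap1) and 0 fell, where 0.342% of all 30718 genes tested rose. H2-T23 went from near the floor to 7.67 on average, H2-D1 rose 22.0-fold and B2m 7.56-fold. Tapbp and Nlrc5 joined them at the study's own cutoff (a fold change over 1.5 with an unadjusted p under 0.05), for 7 of 9 against 2.69% of all genes. In those 7 genes the naive and EAE-vehicle libraries did not overlap, as in 1.02% of genes tested. The median difference over the 9 was 2.65, against 0.03 over all genes. Without the astrocyte libraries under 10000 genes 3 genes passed, B2m, H2-D1 and H2-T23, as was so in 11 of 15 fits with 1 library left out.

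B2m read 8.95, 8.26, 8.82 and 8.99 in naive astrocytes and 11.32, 11.73 and 11.81 (lowest, median, highest) in EAE-vehicle astrocytes. With a spread of under 1 within each group, the rise of 2.92 ± 0.17 carried the smallest adjusted p of the 9 (1.52e-07). H2-K1 read 6.74, 6.58, 7.21 and 7.36 in naive and 8.04, 9.22 and 10.06 in EAE-vehicle astrocytes, a difference of 2.15 ± 0.45 (adjusted p = 0.0434). That call was kept in 3 of 15 fits with 1 library left out, those without EAE-vehicle astrocytes 4 or EAE-RIPK1inh-1 astrocytes 1 or 5. The difference stayed between 1.97 and 2.37 and the adjusted p ran up to 0.152. H2-D1 read 5.69, 2.68, 6.86 and 7.09 in naive and 8.56, 10.21 and 10.79 in EAE-vehicle astrocytes, a rise of 4.46 ± 0.69 (adjusted p = 0.00602). Naive library 2, with 8815 genes detected, was the low one, and without it the rise was 3.49. H2-T23 read 0.62, 2.27, 0.93 and 0.00 in naive astrocytes, at or near no signal, and 6.88, 7.63 and 8.46 in EAE-vehicle astrocytes. Its difference of 6.72 ± 0.53 (adjusted p = 7.63e-06) was the largest of the 9 in either cell type, and was 4.67 with values under 3 raised to 3. B2m and H2-T23 rose under every alternative tried, and H2-D1 under every one but a fit with the replicate number as a block (adjusted p = 0.0905).

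Tap1 was listed at 0.00 and 0.01 in naive astrocytes 1 and 2 and read 2.50 and 2.90 in the others, against 3.52, 5.07 and 5.77 in EAE-vehicle astrocytes. The rise of 3.52 ± 0.72 (adjusted p = 0.0407) was kept in 4 of 15 fits with 1 library left out, those without naive astrocytes 4, EAE-vehicle astrocytes 4 or EAE-RIPK1inh-1 astrocytes 1 or 5, and, with values under 3 raised to 3, came to 1.88 (adjusted p = 0.0891). Tap2 read 3.63, 0.01, 4.57 and 4.75 against 0.02, 4.77 and 5.73, with 1 library near 0 in each group and overlapping groups (0.91 ± 1.09, 95% interval -1.42 to 3.24, adjusted p = 0.861). Tapbp read 4.93, 2.06, 4.95 and 4.19 in naive and 5.68, 6.76 and 7.68 in EAE-vehicle astrocytes, which did not overlap. Its difference of 2.60 ± 0.59 missed the threshold (adjusted p = 0.0691, exact permutation p = 0.00476). Erap1 split the naive libraries in pairs, at 0.52 and 0.00 against 4.33 and 4.32, with 0.06, 2.77 and 3.49 in EAE-vehicle astrocytes. No difference could be made out at that spread (0.23 ± 1.04, 95% interval -2.001 to 2.45, adjusted p = 1). Nlrc5 read 0.62, 0.72, 0.26 and 0.84 in naive astrocytes and 0.90, 3.31 and 5.27 in EAE-vehicle astrocytes. The lowest EAE-vehicle value, 0.90 in library 4, barely cleared the highest naive one, and the difference of 2.65 ± 0.67 did not pass (adjusted p = 0.119, exact permutation p = 0.0190). Without that library it was 3.12 (adjusted p = 0.0188), and 6 of the 9 genes passed.

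Markers of other cells moved with EAE in the astrocyte gate. The mean of 9 T cell markers was 0.34 to 1.27 in naive, 1.40 to 5.79 in EAE-vehicle and 1.39 to 5.47 in EAE-RIPK1inh-1 astrocytes. Of the defining T cell genes, Cd3d was under signal in all 4 naive libraries and had signal in 6 of 6 EAE-vehicle and 3 of 5 EAE-RIPK1inh-1 libraries. Other T cell markers did have signal in naive astrocytes. Of the 9, from 1 to 6 had signal in a naive library and from 6 to 9 in a library of either EAE group. Monocyte and neutrophil markers averaged 0.14 to 1.31, 1.81 to 4.85 and 1.71 to 5.22 in the same order, and oligodendrocyte markers 6.19 to 7.39, 6.38 to 9.91 and 7.81 to 9.19. Microglia markers, of cells with higher class I levels, averaged 0.94 to 2.42, 2.00 to 4.18 and 2.42 to 3.12, and of the 10 markers 8 were higher in EAE-vehicle than in naive astrocytes, 4 at the study's cutoff and 1, Aif1, by adjusted p (3.78 ± 0.76, adjusted p = 0.0393). The mean of the 8 astrocyte markers was lower in EAE-vehicle than in naive astrocytes without overlap, at 8.30 to 9.27 against 9.31 to 9.64. In EAE-RIPK1inh-1 astrocytes it was 8.83 to 9.53. Among these markers, Gfap rose (2.47 ± 0.28, adjusted p = 3.50e-04) and Slc1a3, which encodes the GLAST antigen of the sort, fell by 1.94 (SE 0.38, adjusted p = 0.0320). The fewest T cell transcripts among EAE astrocytes were in EAE-vehicle library 4 (mean 1.40) and EAE-RIPK1inh-1 library 1 (mean 1.39), next to a highest naive value of 1.27. These libraries also held the lowest class I values of their groups, for 6 of 9 genes in EAE-vehicle library 4 and for 8 of 9 in EAE-RIPK1inh-1 library 1. Their means of 3 other marker lists lay above the naive range, at 8.62 and 8.25 for oligodendrocytes, 1.81 and 1.71 for monocytes and neutrophils and 2.98 and 2.66 for microglia. In them B2m read 11.32 and 11.38 against at most 8.99 in naive astrocytes, H2-D1 8.56 and 9.36 against at most 7.09, and H2-T23 6.88 and 5.72 against at most 2.27. H2-K1 in EAE-RIPK1inh-1 library 1 was 7.46, next to a naive maximum of 7.36. Over the 11 EAE astrocyte libraries the mean of the 9 genes and that of the T cell markers had r = 0.65 (Spearman 0.51), and r = 0.08 without the 2 libraries farthest out in T cell markers. For monocyte and neutrophil markers r was 0.57 (Spearman 0.47, and 0.48 without the 2 farthest), for oligodendrocyte markers 0.42 (0.31 and 0.47), for microglia markers 0.06 (0.42 and 0.27) and for 6 neuron markers -0.64 (-0.68 and -0.61). Astrocyte markers had r = -0.07, which was -0.74 without the 2 farthest. How much of the astrocyte rise belongs to other cells was not tested.

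**Figure D2:**
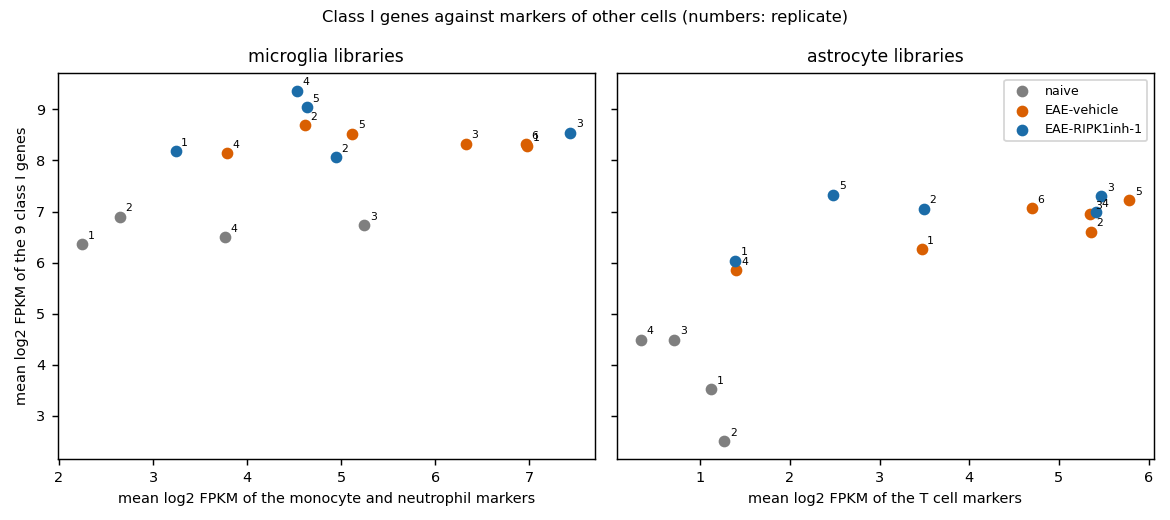
Mean log2 FPKM of the 9 class I genes (vertical axis) against the mean of the monocyte and neutrophil markers in microglia libraries (left) and of the T cell markers in astrocyte libraries (right). Each point is 1 library, numbered by replicate and coloured by group. EAE astrocyte libraries with T cell means of 1.40 and 1.39 lie at 5.85 and 6.04, above naive astrocytes at 2.51 to 4.49 and below the other EAE libraries.

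**Figure D3:**
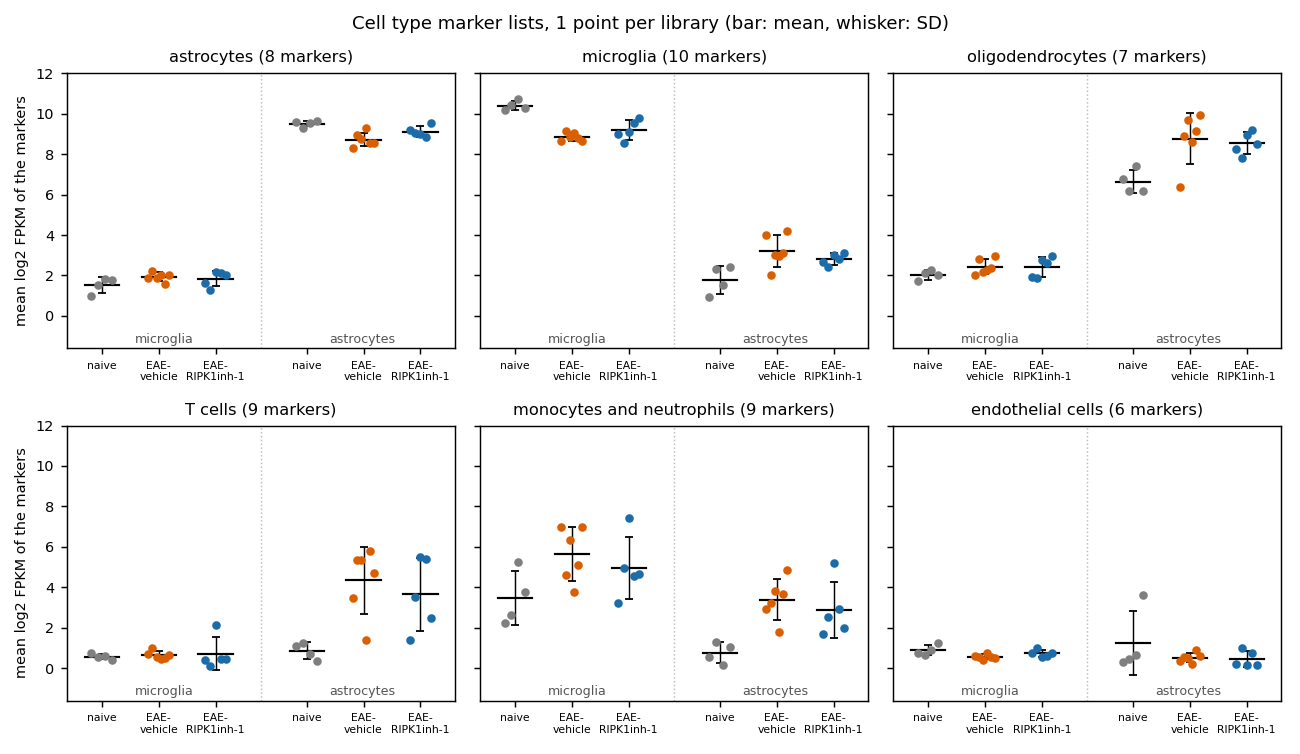
Mean log2 FPKM of 6 cell type marker lists (vertical axes), with 1 point per library, the group mean as a bar and 1 SD as whiskers, for microglia (left of each panel) and astrocytes (right). T cell markers are low in naive astrocytes (0.34 to 1.27) and spread up to 5.79 in EAE-vehicle astrocytes, while in microglia they stay at or under 2.16.

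Whether the EAE response differed between the cell types was tested as the microglia difference minus the astrocyte difference, in one fit over all 30 libraries. Both cell types were sorted from cords of the same mice, and which libraries share a mouse is not given, so the fit took libraries as independent. For 2 of the 9 genes the astrocyte response was larger, where 0.378% of all 30952 genes passed in that direction. B2m differed by -1.65 ± 0.27 (adjusted p = 0.00103), being up 1.27 in microglia and 2.92 in astrocytes from naive means of 12.53 and 8.75. H2-T23 differed by -5.32 ± 0.63 (adjusted p = 2.85e-05), with naive means of 6.97 in microglia and 0.95, near no signal, in astrocytes, and by -3.28 with values under 3 raised to 3. With equal numbers within a treatment taken as 1 mouse, the adjusted p was 0.00685 for B2m and 6.74e-04 for H2-T23. Both calls stood in all 30 fits with 1 library left out, and that for B2m was lost with a common median of detected genes (-1.47, adjusted p = 1). For H2-D1 (-2.58 ± 0.79, adjusted p = 0.134) and Tapbp (-2.11 ± 0.70, adjusted p = 0.189) the same sign did not pass. For H2-K1, up 2.10 in microglia and 2.15 in astrocytes, the difference was -0.06 with a 95% interval of -1.12 to 1.01. Nlrc5 leaned the other way, at 1.62 ± 0.73 (adjusted p = 0.484).

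The effect of the inhibitor within EAE is the comparison of EAE-RIPK1inh-1 with EAE-vehicle libraries. In microglia 0 of the 9 genes passed (limma), 0 had an unadjusted p under 0.05, and 1 of all 28958 genes (0.00345%) passed. At the study's cutoff 0 of the 9 stood against 1.76% of all genes. H2-T23 came closest, at 8.15, 8.36, 8.90, 9.75 and 9.39 with the inhibitor against 7.92, 8.25 and 9.08 with vehicle. That difference was 0.55 ± 0.32 (95% interval -0.14 to 1.24, adjusted p = 0.930, exact permutation p = 0.145), and the groups overlapped. Nlrc5 read 6.08, 6.32, 6.89, 6.50 and 5.96, inside or near the EAE-vehicle range, for a difference of 0.22 (95% interval -0.44 to 0.88). B2m read 13.71, 13.51, 14.48, 13.93 and 14.48, a difference of 0.22 (95% interval -0.20 to 0.64). Its values lay in or just above the EAE-vehicle range of 13.32 to 14.20. H2-K1 read 10.34, 10.19, 10.62, 11.57 and 11.04, and H2-D1 read 10.97, 10.67, 11.48, 12.43 and 12.23. In both, libraries 4 and 5 stood above the whole EAE-vehicle range while the other 3 lay in or below it. Differences were 0.17 (95% interval -0.32 to 0.66) and 0.31 (95% interval -0.33 to 0.95). Tap1 read 6.63, 6.38, 7.14, 8.29 and 7.70 (difference 0.22), Tap2 4.93, 3.96, 5.69, 7.00 and 6.34 (0.58), and Tapbp 7.89, 7.82, 7.51, 9.04 and 8.76 (0.08). Erap1 read 4.89, 5.34, 4.18, 5.78 and 5.50 (-0.03). EAE-RIPK1inh-1 microglia library 4 was highest of its group for 7 of the 9 genes, and without it the differences of H2-K1, Tap1 and Tapbp turned to -0.03, -0.05 and -0.12. The spread of the mean of the 9 genes was wider with the inhibitor (SD 0.56, 8.06 to 9.36) than with vehicle (SD 0.20, 8.15 to 8.69), which was not tested.

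In astrocytes the inhibitor comparison gave 0 of 9 genes at the adjusted threshold (0% of 30718 genes), 0 at an unadjusted p under 0.05, and 0 at the study's cutoff, against 3.02% of all genes. The smallest exact permutation p was 0.173, for Tap2. B2m read 11.38, 11.48, 11.64, 12.02 and 11.93 with the inhibitor, a difference of 0.02 with the narrowest interval of the 9, -0.32 to 0.35. H2-D1 read 9.36, 9.97, 10.42, 10.79 and 9.77, and also differed by 0.02, but with an interval of -1.35 to 1.40. Shifting every library to a common median of detected genes turned both to -0.33. H2-K1 read 7.46, 8.66, 9.66, 9.56 and 9.73 (difference -0.11, interval -1.01 to 0.78), and H2-T23 read 5.72, 7.69, 7.12, 8.31 and 7.21 (-0.46, interval -1.53 to 0.61). Library 1 was the low one for both, and without it H2-K1 differed by 0.27. The loading genes varied most. Tap2 read 3.97, 5.57, 5.71, 5.82 and 6.72, a difference of 1.41 with an interval of -0.78 to 3.59, to which the EAE-vehicle library listed at 0.02 contributed. Tap1 read 4.39, 4.59, 6.15, 5.15 and 6.79 (0.54), Tapbp 5.70, 6.69, 6.96, 6.67 and 7.46 (0.06), Erap1 3.70, 4.80, 3.74, 0.51 and 3.08 (0.65), and Nlrc5 2.64, 4.07, 4.34, 4.04 and 3.28 (0.42). All 5 intervals of these genes included 0. A difference between the cell types in the inhibitor effect passed for 0 of the 9 genes and 0% of all genes, the smallest unadjusted p being 0.0994 for H2-T23.

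**Figure D4:**
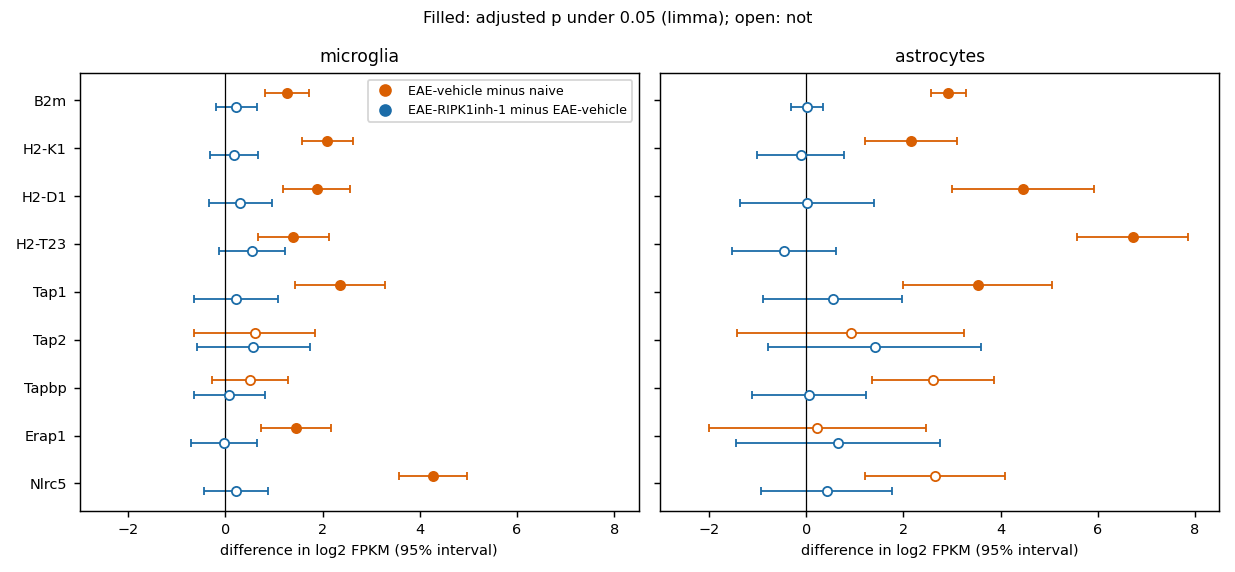
Differences in log2 FPKM with 95% intervals (horizontal axis) for each gene, in microglia (left) and astrocytes (right). EAE-vehicle minus naive differences are in orange and EAE-RIPK1inh-1 minus EAE-vehicle differences in blue, with filled circles where the adjusted p was under 0.05. Filled circles number 7 of 9 in microglia and 5 of 9 in astrocytes for EAE-vehicle minus naive, and 0 for the inhibitor, whose intervals all include 0.

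Set against naive libraries, which the EAE-vehicle comparison also used, inhibitor-treated microglia stood higher for the 7 genes B2m, H2-K1, H2-D1, H2-T23, Tap1, Erap1 and Nlrc5, where 1.81% of all genes rose. Those differences were 1.49, 2.27, 2.19, 1.94, 2.57, 1.42 and 4.49, all with groups that did not overlap, as in 2.72% of genes tested. The Erap1 call was kept in 3 of 15 fits with 1 library left out, those without naive microglia 4, EAE-vehicle microglia 3 or EAE-RIPK1inh-1 microglia 3, and a fit of the 2 groups alone gave 4 calls. Inhibitor-treated astrocytes stood higher for B2m (2.93), H2-D1 (4.48) and H2-T23 (6.26), where 0.124% of all genes rose. Tap1 (4.06, adjusted p = 0.0505) fell just short. Non-overlapping groups were found for 7 of the 9 genes there, against 0.785% of genes tested. H2-D1 lost its call without naive astrocytes 1 (adjusted p = 0.0551) or without EAE-RIPK1inh-1 astrocytes 4 (0.0504). Its call was also lost with the replicate number as a block (adjusted p = 0.181) and in a fit of the 2 groups alone (0.196). Leaving out EAE-RIPK1inh-1 astrocytes 1 gave 5 calls in place of 3.

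Levels were higher in microglia than in astrocytes for 6 of the 9 genes in each treatment group (limma, adjusted p under 0.05), against 5.94% of all genes in naive, 7.89% in EAE-vehicle and 7.18% in EAE-RIPK1inh-1 libraries. B2m led in every group, with means of 12.53 ± 0.16 (SD, n = 4), 13.80 ± 0.30 (n = 6) and 14.02 ± 0.45 (n = 5) in microglia and 8.75 ± 0.34 (n = 4), 11.67 ± 0.19 (n = 6) and 11.69 ± 0.28 (n = 5) in astrocytes. Its median rank among 30952 genes went from 117 in naive astrocytes to 20 in EAE-vehicle astrocytes, and from 12 to 4.5 in microglia. In order of B2m level, the EAE microglia groups came first and overlapped each other, naive microglia next, then the EAE astrocyte groups, which overlapped each other, and naive astrocytes last. H2-K1 and H2-D1 had the order EAE microglia, EAE astrocytes, naive microglia and naive astrocytes, in which EAE-vehicle microglia did not overlap their next neighbour, while EAE astrocytes and naive microglia overlapped. For H2-D1, EAE-RIPK1inh-1 microglia began at 10.67 and overlapped both EAE astrocyte groups, which reached 10.79. The H2-D1 difference between cell types did not pass in either EAE group. H2-T23 in EAE-vehicle libraries was 8.36 in microglia and 7.67 in astrocytes, a difference of 0.69 (95% interval -0.13 to 1.51) that did not pass, against 6.01 in naive libraries, which did (adjusted p = 1.98e-10). With naive astrocytes near no signal, that 6.01 fell to 3.97 with values under 3 raised to 3. Between H2-D1 and H2-K1 the order turned within astrocytes. H2-D1 minus H2-K1 was -3.90 to -0.27 in the 4 naive libraries and 0.04 to 1.90 in the 11 EAE libraries. Tap2 showed no order beyond its spread, with group means from 3.24 to 5.58 and overlap between all neighbours. Erap1 and Nlrc5 were higher in microglia than in astrocytes in EAE-vehicle libraries (2.65 and 2.87), and Nlrc5 also with the inhibitor (2.67). The 6 genes of naive libraries were B2m, H2-K1, H2-D1, H2-T23, Tap1 and Tapbp. Those of EAE-vehicle libraries were B2m, H2-K1, Tap1, Tapbp, Erap1 and Nlrc5. Those with the inhibitor were B2m, H2-K1, H2-T23, Tap1, Tapbp and Nlrc5, of which Tap1 lost its call in 6 and Tapbp in 5 of 30 fits with 1 library left out. With every library shifted to a common median of detected genes, 3 of the 9 passed in each EAE group.

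Within EAE libraries the 9 genes tended to move together, which is described here without a test because the libraries share their normalization and each gene in a library shares its depth. Over the 11 EAE microglia libraries the median r of the 36 gene pairs was 0.50, with 31 pairs above 0. The pair H2-K1 and H2-D1 had the highest value, 0.93, and Erap1 and Nlrc5 the lowest, -0.63. In EAE astrocytes the median was 0.45, with 29 of 36 pairs above 0, Tap1 and Tapbp highest at 0.86 and B2m and Erap1 lowest at -0.47. Among the protein-coding genes most like the mean of the 9 in microglia were Lyl1 and Sgta (r = 0.96) and Copa and Slc2a6 (r = 0.95), out of 9667 compared. They were picked for their high r, which was 0.90, 0.83, 0.88 and 0.83 without the 2 libraries farthest out. Slc2a6 averaged 5.61 in EAE and 2.99 in naive microglia, while Lyl1, Sgta and Copa averaged lower in EAE than in naive libraries. In astrocytes they were Miip (r = 0.91), Ralyl (0.90), Slc35b1 (0.88), Dus3l and Ift20 (both 0.87), out of 10334. The microglia marker mean went with the mean of the 9 genes over the EAE microglia libraries (r = 0.84, Spearman 0.75, and r = 0.52 without the 2 libraries farthest out). For oligodendrocyte markers r was 0.63 (Spearman 0.69, and 0.71 without the 2 farthest), for astrocyte markers 0.53 (0.62 and 0.51), and for monocyte and neutrophil markers -0.10 (0.05 and -0.05).

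Further heavy chains were higher in EAE as well. Of 14 listed, 13 were in the table, and 4 rose in EAE-vehicle microglia and 0 fell, where 2.37% of all genes rose. H2-Q7 went from 0.01 to 3.06 in naive to 7.00 to 7.99 in EAE-vehicle microglia (5.50 ± 0.50, adjusted p = 1.16e-05). H2-T22 was listed at 0.00 in its lowest naive library and at 5.22 in its highest, and read 7.12 to 7.52 in EAE-vehicle microglia (5.01 ± 0.83, adjusted p = 0.00239). H2-Q6 rose by 4.89 ± 0.48 (adjusted p = 2.54e-05). The fourth, H2-Q4, rose by 1.67 ± 0.42 (adjusted p = 0.0410), a call kept in 4 of 15 fits with 1 library left out, those without naive microglia 1, EAE-vehicle microglia 1 or EAE-RIPK1inh-1 microglia 2 or 3. H2-Q6 and H2-Q7 lie in the Qa-2 region and are near copies of each other, so reads may have been shared between them. In astrocytes, where 0.342% of all genes rose, 1 of the 13 passed, H2-Q6, at 0.00 to 0.02 in naive and 1.04 to 6.03 in EAE-vehicle libraries (adjusted p = 0.0145). That call was lost without naive astrocytes 1, 3 or 4, and the difference of 4.22 came to 1.56 with values under 3 raised to 3 (adjusted p = 0.148). Between inhibitor and vehicle 0 of 13 passed in either cell type.

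Of 10 factors known at class I promoters, 2 rose in each cell type and 0 fell, where 2.37% of all genes rose in microglia and 0.342% in astrocytes. In microglia 2 further factors were lower at the study's cutoff and the median difference over the 10 was -0.02, while in astrocytes the median was 0.67. Irf1, an interferon-induced activator that binds the response element marked in the windows, was 2.09 to 6.30 in naive and 6.36 to 7.22 in EAE-vehicle microglia, and 0.00 to 2.16 against 3.81 to 6.95 in astrocytes. It rose by 2.38 ± 0.62 in microglia (adjusted p = 0.0454) and by 4.38 ± 0.87 in astrocytes (adjusted p = 0.0368). The microglia call was kept in 3 of 15 fits with 1 library left out, those without naive microglia 3 or EAE-RIPK1inh-1 microglia 2 or 4, and the difference fell to 1.58 without naive microglia 4. The astrocyte call was kept in 7 of 15, those without naive astrocytes 2, EAE-vehicle astrocytes 4 or any EAE-RIPK1inh-1 library, and was 2.35 (adjusted p = 0.0515) with values under 3 raised to 3. Of the 4 interferon receptor genes, 2 fell in microglia, where Ifngr1 fell by 2.00 (SE 0.32, adjusted p = 0.00179), Ifnar2 fell by 1.09 (SE 0.27, adjusted p = 0.0317) and 0 rose. Shares of all genes that fell, or that had an unadjusted p under 0.05, are not given here. Counts of those kinds in these lists therefore have no background beside them. The Ifnar2 call was lost without naive microglia 2 or 4 or EAE-vehicle microglia 1, 3, 4, 5 or 6, and that for Ifngr1 only with a common median (adjusted p = 0.0921). In astrocytes 0 of 4 passed, with 0 at an unadjusted p under 0.05. Of 4 other partners of B2m, the MR1 chain that presents vitamin B metabolites rose in EAE-vehicle microglia (Mr1, 2.83 ± 0.65, adjusted p = 0.0224), a call lost without naive microglia 3 (adjusted p = 0.0693). All 4 partners had an unadjusted p under 0.05 there, 2 of them were lower at the study's cutoff, and their median difference was -0.48. Of 9 further loading and trimming genes, such as the chaperones Calr and Pdia3, 8 were in the table and 0 passed in either cell type, with 2 in microglia and 3 in astrocytes at an unadjusted p under 0.05. In EAE-RIPK1inh-1 against naive microglia the TAPBPR gene Tapbpl rose by 1.07 (SE 0.26, adjusted p = 0.0401, a call kept without naive microglia 1, EAE-vehicle microglia 3 or EAE-RIPK1inh-1 microglia 1 and lost in the other 12 fits) and the iron regulator Hfe fell by 2.05 (SE 0.37, adjusted p = 0.00660). Over the 5 lists, 0 genes passed between inhibitor and vehicle in either cell type (limma), with 3 in microglia and 1 in astrocytes at an unadjusted p under 0.05.

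**Figure D5:**
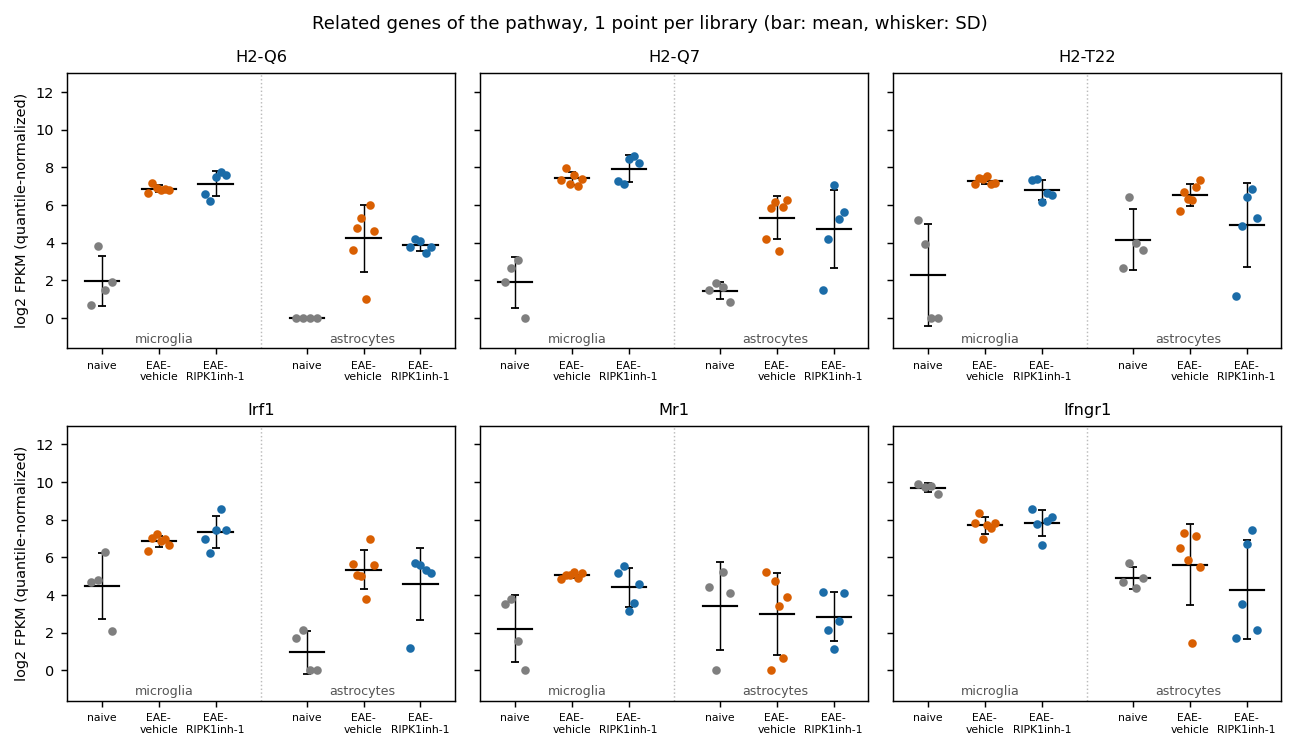
Log2 FPKM of 3 further heavy chains (H2-Q6, H2-Q7, H2-T22), the promoter factor Irf1, the B2m partner Mr1 and the interferon gamma receptor chain Ifngr1 (vertical axes), with 1 point per library, the group mean as a bar and 1 SD as whiskers. Irf1 in astrocytes lies at 3.81 to 6.95 in EAE-vehicle libraries against 0.00 to 2.16 in naive ones, and within microglia Ifngr1 is the one gene of the 6 with naive libraries highest, at 9.34 to 9.92.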

How the data were processed

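RNA of sorted microglia and astrocytes was sequenced from libraries made with Smart-seq2 and Tn5 tagmentation. Values are log2 FPKM as deposited by the authors, who quantified and quantile-normalized them in OmicSoft Array Studio 10.1.1.3; the aligner, the gene model version and the offset added before the logarithm are not given in the sources used here. The sorted values were the same in all 30 libraries. FPKM uses the exon length of each gene, and no counts were used, so no interval for counting error is given.

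Groups were taken from the labels. The 9 genes and the gene lists were chosen with earlier results of these data known. Differences were tested with limma 3.58.1 in R 4.3.3 (group means, empirical Bayes with a trend) on all genes whose values varied: 28958 in microglia, 30718 in astrocytes and 30952 over both cell types, with Benjamini-Hochberg adjustment over all of them and a threshold of 0.05. The study's cutoff (fold 1.5, unadjusted p 0.05) was a further rule. Its methods name a paired test, but group sizes differ and no pairing is stated, so the fits were unpaired. Exact permutation tests were two-sided. The study counts 4, 6 and 5 mice, as many as libraries of each cell type, so replicates were taken as separate mice; both cell types came from these mice, and which libraries share one is not given in the sources used here. A gene had signal in a library when it exceeded the top of that library's run of lowest values that only rises in the deposited gene order. Of related lists, the genes passing were named, at most the 3 largest rises and 3 largest falls. The fitting step was tested on simulated data holding 200 shifted genes. Alternatives were array weights, centring on medians, a minimum mean of 1, values under 3 raised to 3, fits of 2 groups, a replicate block and each library left out, and, chosen after seeing the data, leaving out libraries under 10000 genes. Centring subtracted from each library the median of its genes with signal, so the shift depends on how many genes were detected. Promoter windows are from RefSeq, and the windows of Tap2 and Nlrc5 were not used here. Some genes that met the naming rules are not reported here. Tools were Python 3.11.15, Biopython 1.88 and matplotlib 3.10.9.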

Additional observations from a re-analysis of the deposited data

Results flagged for a closer look

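A library that stood apart from the rest of its group was found in 5 of 54 groups of values tested (9 genes in 6 groups), where chance gives about 1 in 20. B2m in EAE-vehicle astrocytes 4 was 11.32, and H2-D1 in the same library was 8.56, both below the other 5 libraries. H2-K1 in naive microglia 2 was 9.07, above the other 3. Tap2 was listed at 0.02 in EAE-vehicle astrocytes 1, the library with the fewest genes detected (6728), while the other 5 read 4.59 to 5.73. Erap1 was listed at 0.06 in EAE-vehicle astrocytes 2, against 2.59 to 3.49 in the others.

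The EAE response differed between microglia and astrocytes, by the test of that difference, for B2m (-1.65, microglia minus astrocytes) and for H2-T23 (-5.32). The B2m call was lost with every library shifted to a common median of detected genes (adjusted p = 1), and the H2-T23 value, for which naive astrocytes were near no signal, came to -3.28 with values under 3 raised to 3.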

How the results depend on the processing

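Among values of single genes under settings other than leaving out a library, 571 kept their direction and their side of the threshold, 24 changed sign, 32 lost and 21 gained a call. The causes of these changes were not tested. Between inhibitor and vehicle 0 of 9 genes passed in either cell type under every setting (limma). How deeply each library was sequenced is unknown, and some low values, such as those of Nlrc5 and H2-T23 in naive astrocytes and of Tap2 and Erap1 in single astrocyte libraries, are near the level of undetected genes.

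Array weights gave, in astrocytes, Erap1 differences of -0.82 (EAE-vehicle against naive), -1.08 (inhibitor against naive) and -0.26 (inhibitor against vehicle), 0.13 for H2-K1 between inhibitor and vehicle, and 7 genes passing between inhibitor and naive. They also gave a median difference of 2.28 between naive microglia and astrocytes, and, for differences between cell types, 0.33 for Erap1 under the inhibitor and 0.016 for H2-K1, 0.14 for Tap2 and -0.054 for the median under EAE. Centring, which moved the 9 genes by -0.35 to 0.55, gave B2m -0.33, H2-D1 -0.33 and Tapbp -0.29 between inhibitor and vehicle in astrocytes, Erap1 0.095 in microglia, and 3 genes passing between EAE-vehicle and naive astrocytes. For the cell types it gave 3 genes passing in each EAE group, a median of 2.29 with the inhibitor, 1 gene passing and H2-K1 at 0.12 for the difference in the EAE response, and Nlrc5 0.28 and Tap1 0.16 for that in the inhibitor response. A minimum mean of 1 gave 6 genes passing between inhibitor and naive astrocytes, and fitting 2 groups alone gave 4 between inhibitor and naive microglia.

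Values under 3 raised to 3 gave Erap1 -0.51 between EAE-vehicle and naive astrocytes, a median of 1.66 between naive cell types, 4 genes passing, Tap1 0.48 and a median of -0.060 for the cell type difference in the EAE response, and Nlrc5 0.077 for that in the inhibitor response. Without libraries under 10000 genes, Erap1 was -0.73 and 3 genes passed between EAE-vehicle and naive astrocytes, B2m was -0.0495 and Tapbp -0.32 between inhibitor and vehicle astrocytes, the median between naive cell types was 2.57, that of the cell type difference in the EAE response was -0.56, and Tap1 was 0.14 and Tap2 0.28 for the inhibitor response.

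Correlations between libraries cannot settle whether equal replicate numbers mark pairs. Over 26 pairs of equal number across treatments r ran from -0.16 to 0.24, with 4 over 0.1, and over 15 pairs between cell types from -0.04 to 0.13, with 1 over 0.1. Among pairs of unequal number, the widest range across treatments was -0.35 to 0.34 (naive with EAE-RIPK1inh-1 microglia). Between cell types the widest was -0.14 to 0.085 (naive). With the replicate number as a block, 5 genes passed between EAE-vehicle and naive microglia and 2 in astrocytes, where Erap1 was -0.0095, and Erap1 between inhibitor and vehicle microglia was 0.001.

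With 1 library left out, inhibitor minus vehicle in astrocytes ran from -0.0661 to 0.093 for B2m, -0.27 to 0.20 for H2-D1, -0.33 to 0.27 for H2-K1, -0.0507 to 0.82 for Nlrc5 and -0.13 to 0.31 for Tapbp, and in microglia from -0.19 to 0.21 for Erap1, -0.0335 to 0.31 for H2-K1, -0.0476 to 0.43 for Tap1 and -0.12 to 0.26 for Tapbp. EAE-vehicle minus naive astrocytes ran from -0.54 to 0.90 for Erap1 and -0.16 to 1.74 for Tap2, with 3 to 6 genes passing, and 2 to 5 passed between inhibitor and naive astrocytes. For differences between cell types, the EAE response ran from -0.27 to 0.14 for H2-K1 and -1.14 to 0.76 for Tap2, and the inhibitor response from -0.10 to 0.50 for H2-K1, -0.60 to 0.27 for Nlrc5, -0.59 to 0.0215 for Tap1 and -0.23 to 0.22 for Tapbp. Tap2 between cell types with the inhibitor ran from -0.37 to 0.43.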
